A study of Mus musculus with 26 samples.

Results

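The DNA replication machinery was examined as 43 genes, chosen by symbol, of the 37310 genes counted in each of 26 RNA sequencing libraries. The 43 genes fall into 11 roles: 6 subunits of the origin recognition complex, 2 helicase loaders, 6 subunits of the MCM2-7 helicase, Cdc45 with the 4 GINS subunits, 2 other MCM proteins, the clamp Pcna with 5 clamp loader subunits, 3 genes of primase and polymerase alpha, 5 subunits of polymerases delta and epsilon, 2 genes of Okazaki fragment joining, 3 subunits of replication protein A and 3 enzymes of nucleotide supply. All 43 had reads in every library and passed the filter on low counts in every fit, with a lowest count of 9 reads, for Fen1. All material came from C57BL/6 mice carrying the MMTV-PyMT transgene, in which a viral promoter active in mammary epithelium drives polyoma middle T antigen, so the controls carry the same oncogene as the treated groups. Mammary tumors came from mice given subcutaneous antisense oligonucleotide at 125 mg/kg per week for several weeks: ASO1 (n = 3) or ASO2 (n = 4), both directed at the long noncoding RNA Malat1, or scASO, the control oligonucleotide (n = 3). Organoids, tumor fragments grown in Matrigel with FGF2, were labelled ASO1, ASO2, scASO or Mock (n = 4 each), each oligonucleotide being given at 500 nM for 6 days and renewed after 3 days. The sources used here give no age for the mice. Whether replicates are separate animals or cultures is not stated in the labels, and p-values therefore cover the spread between libraries, which may be technical.

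Before S phase the origin recognition complex, with Cdc6 and Cdt1, loads the ring of Mcm2 to Mcm7 onto DNA, and Cdc45 and the GINS complex then join it to form the active helicase. Replication protein A coats the opened single strands, polymerase alpha with primase lays down primers, the clamp loader Rfc places the sliding clamp Pcna, and polymerases epsilon and delta copy the leading and lagging strands, after which Fen1 and Lig1 trim and join the Okazaki fragments. Many of these genes are transcribed under E2F factors as cells enter S phase, and their summed RNA is widely used as a reading of how much of a tissue is cycling.

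Promoters were read because genes of this machinery are known E2F targets. RefSeq windows on build GRCm38.p6, from 250 bases before to 50 bases after the start, were listed for 36 of the 43 genes and not for Mcm4, Gins1, Gins2, Gins4, Rfc2, Prim2 and Pole. The E2F motif TTTGGCGC or TTTCGCGC, searched on both strands, lay in 10 of the 36 windows (27.8%) and in 225 of 27025 windows of all genes (0.833%). The 250 bases before the start are shown for 3 genes that hold it, Mcm5 (chr8:75109259-75109508, plus strand), Mcm6 (chr1:128359706-128359955, minus strand) and Pola1 (chrX:93632156-93632405, minus strand), and for Tyms (chr5:30073626-30073875, minus strand), which holds none in its window. Capitals mark the E2F matches on either strand, and the sequences run 5′ to 3′ on the strand of the gene.
Mcm5: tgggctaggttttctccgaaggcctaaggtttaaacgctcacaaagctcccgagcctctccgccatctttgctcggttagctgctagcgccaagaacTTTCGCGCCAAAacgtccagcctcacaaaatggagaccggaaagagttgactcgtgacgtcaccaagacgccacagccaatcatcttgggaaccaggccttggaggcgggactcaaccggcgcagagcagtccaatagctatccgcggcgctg
Mcm6: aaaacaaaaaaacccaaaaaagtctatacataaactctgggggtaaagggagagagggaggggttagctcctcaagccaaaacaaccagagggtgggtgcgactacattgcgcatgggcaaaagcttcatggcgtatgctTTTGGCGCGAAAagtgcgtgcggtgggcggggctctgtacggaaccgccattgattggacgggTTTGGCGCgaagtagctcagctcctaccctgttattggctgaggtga
Pola1: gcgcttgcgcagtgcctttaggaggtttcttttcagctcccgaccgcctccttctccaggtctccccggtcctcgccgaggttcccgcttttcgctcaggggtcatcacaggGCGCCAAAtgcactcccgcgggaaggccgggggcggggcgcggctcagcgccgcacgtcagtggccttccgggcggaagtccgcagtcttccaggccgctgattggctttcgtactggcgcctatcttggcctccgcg
Tyms: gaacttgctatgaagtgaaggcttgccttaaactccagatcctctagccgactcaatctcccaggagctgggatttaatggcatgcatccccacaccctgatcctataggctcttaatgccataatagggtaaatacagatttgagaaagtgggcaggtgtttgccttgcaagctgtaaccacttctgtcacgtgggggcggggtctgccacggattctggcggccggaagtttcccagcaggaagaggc
In Mcm5 and Mcm6 a pair of matches on opposite strands overlapped, and Mcm6 held a further match nearer the start. The motif was present in 4 of the 5 listed MCM2-7 windows (80%), in 1 of 6 origin recognition complex windows (16.7%) and in 1 of 17 windows of a list of mitotic genes (5.88%). CCAAT, a box bound by NF-Y, lay in 63.9% of the members' windows, 82.4% of mitotic windows and 37.9% of all windows. The cell cycle homology element TTTGAA lay in 11.1% of the members' windows, 70.6% of mitotic windows and 18.1% of all windows. A match describes letters in a window and not a bound site.

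Organoid libraries held 23973533 to 65146030 reads in genes and tumor libraries 9939520 to 51363552. Levels are in CPM, the reads of a gene relative to the size of its library, scaled by TMM over all libraries, and values are listed in the order of replicate number. Malat1, the targeted RNA, had 824, 780.4 and 401 CPM in ASO1 tumors and 594, 913, 639 and 381 CPM in ASO2 tumors, against 1569, 1913 and 847 CPM in scASO tumors. The ASO tumors kept 45.2% of the scASO level (exact two-sided permutation test over 120 splits, p = 0.0167). In organoids Malat1 had 186, 114, 86.9 and 124 CPM in ASO1 organoids and 1485, 219, 95.6 and 307 CPM in ASO2 organoids. It had 836, 119, 781 and 1191 CPM in scASO organoids and 769, 1578, 713 and 1321 CPM in Mock organoids. The library labelled ASO2 replicate 1 thus had 1485 CPM, near the Mock organoids, and the library labelled scASO replicate 2 had 119 CPM, near the ASO1 organoids, so that both went against their labels. With all libraries the ASO organoids kept 35.5% of the scASO level (exact two-sided permutation test, p = 0.123), and 15.9% without those 2 libraries (p = 0.00833, exact test over 120 splits). The p without them is no independent test of Malat1, because the 2 were picked by their Malat1 values. Since both went against their labels, comparisons that involve ASO2 or scASO organoids were also made without them. The summed CPM of 10 epithelial markers lay between 7327 and 13875 in organoids and between 3174 and 5700.5 in tumors, and no epithelial marker was at 0 in any library.

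In tumors most of the set had higher estimates under the ASOs, and no gene passed the test. The estimate was above 0 for 42 of the 43 genes when both ASOs were set against scASO, with a median log2 fold change of 0.37 and a range of -0.16 (Fen1) to 0.82 (Mcm10). Of all 17354 genes tested, 56.9% had an estimate above 0 and the median was 0.05. With the quasi-likelihood test of edgeR, adjusted over all genes by Benjamini-Hochberg, 0 members and 0% of all genes were called, the smallest adjusted p of a member being 0.827. Unadjusted p was under 0.05 for 11 members, all with higher estimates, against 5.86% of all genes. DESeq2 called 20 genes, none of them a member, and limma voom with quality weights called 0. With ASO1 alone 42 members were above 0 (median 0.45), against 55.5% of all genes, and 13 had an unadjusted p under 0.05, against 8.45% of all genes. With ASO2 alone 41 were above 0 (median 0.24), against 55.2% of all genes, and 4 had an unadjusted p under 0.05, against 5.14% of all genes. Both comparisons share the scASO tumors. The test called 0.00576% of all genes for ASO1 and 0% for ASO2, and no member in either. Set against each other, ASO1 and ASO2 tumors differed for 0 members and 0% of all genes by the same test, with 33 estimates above 0, 2 at an unadjusted p under 0.05 (10% of all genes) and a median of 0.19, or 18 above 0 and a median of -0.03 without ASO1 tumor 2.

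These estimates rested in part on a single tumor. ASO1 tumor 2 was the highest of the 10 tumors for 30 of the 43 genes, and ASO2 tumor 4 for 9. The mean log2 CPM over the 43 genes was 4.89, 5.41 and 4.57 in ASO1 tumors and 4.41, 4.93, 4.69 and 5.05 in ASO2 tumors, against 4.52, 4.56 and 4.53 in scASO tumors. The 3 scASO tumors lay between 4.52 and 4.56, while the ASO tumors spread more widely, from 4.41 to 5.41. ASO2 tumor 1 lay below the scASO tumors and the other ASO tumors above them, ASO1 tumor 3 by a small margin. Without ASO1 tumor 2, 38 members kept an estimate above 0, the median was 0.25 and 1 member had an unadjusted p under 0.05 (5.54% of genes). Without scASO tumor 1 or 2 no member had one (2.8% and 2.68% of genes), and without scASO tumor 3 there were 2 (4.25% of genes). ASO1 tumor 2 was also the deepest tumor library, at 51363552 reads, and ASO2 tumor 4 the shallowest, at 9939520. ASO2 tumor 1 was the lowest of the 10 for 19 of the 43 genes, and relative to reads in genes it had the highest shares of reads with several alignments (44.0%) and with no feature (24.5%) of the 26 libraries. The part of depth and of these shares was not tested.

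**Figure D1:**
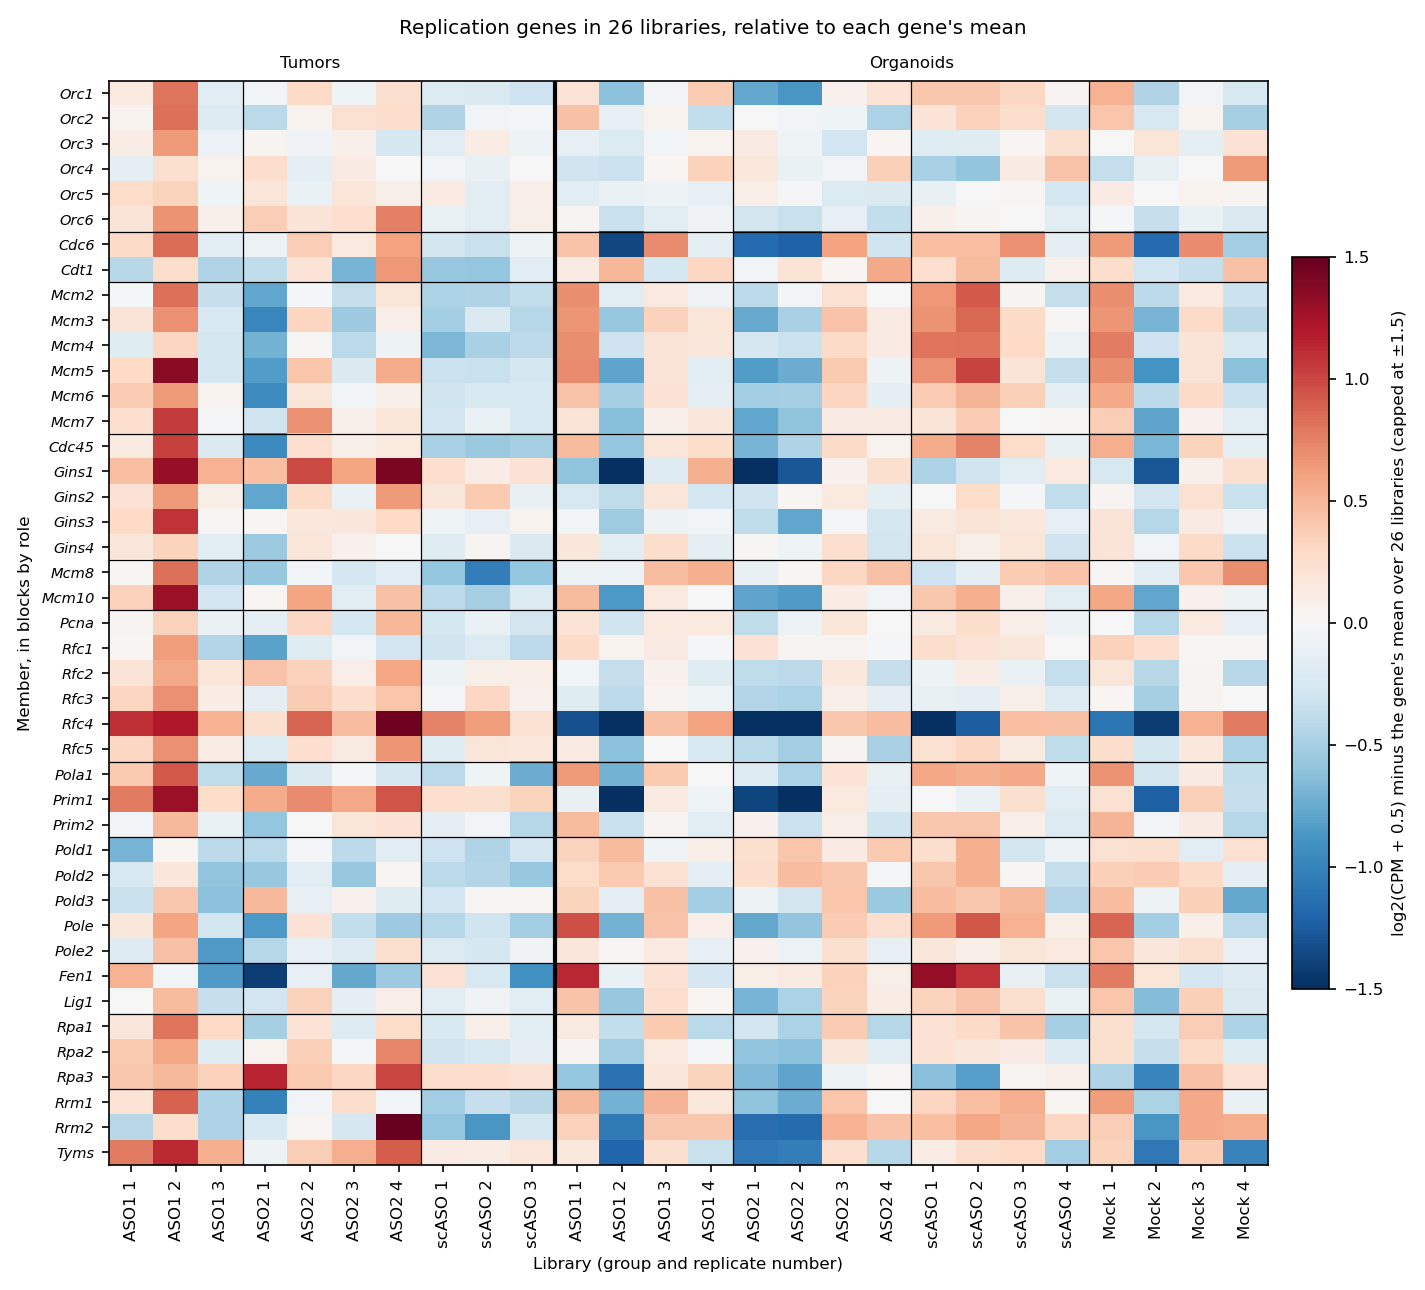
Heatmap of the 43 replication genes (rows, in blocks by role) in the 26 libraries (columns, by system, group and replicate number), where color is log2(CPM + 0.5) minus the mean of the gene over the 26 libraries, blue below and red above, capped at 1.5. ASO1 tumor 2 is the highest tumor for 30 genes, and the number 2 organoids of ASO1, ASO2 and Mock and the library labelled ASO2 replicate 1 form the blue columns.

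Of the origin recognition complex, which marks the origins, all 6 subunits had estimates above 0 (median 0.26, range 0.14 to 0.55). Orc6 (GRCm38 chr8:85299632-85308278), a subunit that helps bring in the MCM rings, had 27.7, 39.01 and 25.5 CPM in ASO1 tumors and 31.3, 27.7, 28.9 and 41.3 CPM in ASO2 tumors, against 22.4, 21.5 and 25.7 CPM in scASO tumors. In all, 6 of the 7 ASO tumors were above every scASO tumor and ASO1 tumor 3 overlapped them. Its log2 fold change was 0.46 ± 0.18 (unadjusted p = 0.0298, adjusted p = 0.827 in edgeR's quasi-likelihood test). Orc1, the ATPase subunit that is itself cell cycle regulated, was among 5 members whose 7 ASO tumors all lay above the 3 scASO tumors, with a log2 fold change of 0.55 ± 0.30. The other 4 of the 5 were Mcm8, Gins1, Rfc2 and Rpa3, and 0.882% of all genes were placed this way. No member had every ASO tumor below every scASO tumor, a placement found for 1.43% of genes. For ASO1 alone 14 members did not overlap scASO and were higher (7.06% of genes), and for ASO2 alone 10 (3.48% of genes), and 0 were lower in either comparison (9.39% and 3.67% of genes).

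The helicase loaders were also above 0. Cdc6 (GRCm38 chr11:98907801-98923940), which loads the helicase with the origin recognition complex, had 12.4, 18.4 and 8.99 CPM in ASO1 tumors and 9.44, 13.2, 11.2 and 15.6 CPM in ASO2 tumors, against 8.27, 7.91 and 9.51 CPM in scASO tumors. ASO1 tumor 2 was highest, and ASO1 tumor 3 and ASO2 tumor 1 fell within the range of scASO. The log2 fold change was 0.59 ± 0.26 (unadjusted p = 0.0420). Cdt1, its partner, which is destroyed once S phase begins, had 15.4, 25.01 and 14.99 CPM in ASO1 tumors and 15.9, 23.996, 12.5 and 32.8 CPM in ASO2 tumors, against 13.9, 13.7 and 18.4 CPM in scASO tumors. Only ASO1 tumor 2, ASO2 tumor 2 and ASO2 tumor 4 were above the scASO range, and the log2 fold change was 0.38 ± 0.30 (0.24 without ASO1 tumor 2 and also without ASO2 tumor 4).

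The 6 subunits of the MCM2-7 helicase had close estimates (median 0.45, range 0.39 to 0.67). Mcm2 had 52.2, 95.3 and 41.9 CPM in ASO1 tumors and 30.95, 52.1, 41.7 and 60.7 CPM in ASO2 tumors, against 38.2, 39.04 and 41.2 CPM in scASO tumors. All ASO tumors but ASO2 tumor 1 were above the scASO range, the margin of ASO1 tumor 3 and ASO2 tumor 3 being small, and the log2 fold change was 0.46 ± 0.26 (0.25 without ASO1 tumor 2). Mcm4 had 45.9, 65.2 and 43.2 CPM in ASO1 tumors and 31.6, 52.6, 39.1 and 49.2 CPM in ASO2 tumors, against 32.3, 37.1 and 39.4 CPM in scASO tumors. The groups overlapped through ASO2 tumors 1 and 3, and the log2 fold change was 0.39 ± 0.19. Mcm7 had 84.1, 146 and 69.3 CPM in ASO1 tumors and 57.2, 114, 74.7 and 80.5 CPM in ASO2 tumors, against 57.6, 65.6 and 59.6 CPM in scASO tumors. Its log2 fold change of 0.58 ± 0.25 (0.39 without ASO1 tumor 2) was the one of this complex with an unadjusted p under 0.05 (0.0433, adjusted p = 0.827 in edgeR's quasi-likelihood test), and ASO2 tumor 1 was again the lowest of the 10. In the same tumor markers of skeletal muscle and of fibroblasts were the highest of the 10 tumors, with mean log2 values of 7.61 and 6.87 CPM.

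Mcm10 and Mcm8, which lie outside the core ring, had the highest estimates of the 43 genes. Mcm10 (GRCm38 chr2:4989714-5012791), which helps start unwinding, had 21.5, 42.002 and 13.7 CPM in ASO1 tumors and 17.3, 25.8, 14.99 and 23.05 CPM in ASO2 tumors, against 12.8, 11.8 and 14.5 CPM in scASO tumors. In all, 6 of the 7 ASO tumors were above the scASO range, and the log2 fold change was 0.82 ± 0.32 (unadjusted p = 0.0256, adjusted p = 0.827 in edgeR's quasi-likelihood test), or 0.54 without ASO1 tumor 2. Mcm8, a helicase of homologous recombination, had 8.56, 15.3 and 6.03 CPM in ASO1 tumors and 5.52, 8.19, 6.93 and 7.49 CPM in ASO2 tumors, against 5.44, 3.84 and 5.45 CPM in scASO tumors. The 7 ASO tumors lay above the 3 scASO tumors, by a small margin in ASO2 tumor 1, and the log2 fold change was 0.78 ± 0.31 (unadjusted p = 0.0300). Cdc45 and the GINS subunits had a median of 0.44 and a range of 0.06 (Gins2) to 0.74 (Cdc45). Gins1 had 8.52, 15.9 and 8.99 CPM in ASO1 tumors and 8.51, 12.7, 9.42 and 17.1 CPM in ASO2 tumors, against 7.36, 6.63 and 7.19 CPM in scASO tumors. The groups did not overlap, and the log2 fold change was 0.72 ± 0.29 (unadjusted p = 0.0314). Gins3 had 6.91, 12.3 and 5.60 CPM in ASO1 tumors and 5.65, 6.24, 6.30 and 6.93 CPM in ASO2 tumors, against 5.27, 5.04 and 5.76 CPM in scASO tumors. ASO1 tumor 2 was the highest and ASO1 tumor 3 and ASO2 tumor 1 lay within the scASO range, and the log2 fold change was 0.44 ± 0.27 (0.23 without ASO1 tumor 2).

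At the clamp and its loader all 6 estimates were above 0 and smaller (median 0.30, range 0.21 to 0.37). Pcna, the sliding clamp, had 97.3, 120.1 and 88.2 CPM in ASO1 tumors and 85.7, 118, 78.6 and 134 CPM in ASO2 tumors, against 78.8, 87.9 and 77.97 CPM in scASO tumors. Here 5 of the 7 ASO tumors exceeded every scASO tumor, and the log2 fold change was 0.35 ± 0.18. Rfc2, a loader subunit, had 48.5, 62.7 and 48.1 CPM in ASO1 tumors and 56.9, 53.9, 45.4 and 63.3 CPM in ASO2 tumors, against 39.96, 45.02 and 45.3 CPM in scASO tumors. The groups did not overlap, by a narrow margin, and the log2 fold change was 0.33 ± 0.14 (unadjusted p = 0.0445). Rfc5, another loader subunit, had 35.6, 46.4 and 30.8 CPM in ASO1 tumors and 24.6, 34.2, 31.4 and 45.5 CPM in ASO2 tumors, against 25.2, 32.4 and 31.97 CPM in scASO tumors. These values overlapped, and the log2 fold change was 0.27 ± 0.20 (between 0.16 and 0.18 without ASO1 tumor 2, ASO2 tumor 4 or scASO tumor 1). In the GENCODE annotation Rfc2 shares 15.1% of its exon bases with other genes (largest partner Lat2) and Rfc4 12.7% (largest partner Eif4a2). The largest shares of the members were those of Fen1 (84.2%), Gins2 (67.3%, largest partner Gse1) and Orc2 (29.8%, largest partner Nif3l1). Part of the reads of these genes is uncertain where strand was not used.

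Primase and polymerase alpha, which make the primers, had a median of 0.46. Prim1, the catalytic primase subunit, had 34.2, 49.1 and 23.9 CPM in ASO1 tumors and 29.2, 32.5, 29.4 and 38.3 CPM in ASO2 tumors, against 23.5, 23.2 and 25.01 CPM in scASO tumors. ASO1 tumor 3 fell within the scASO range and the other 6 ASO tumors above it, with a log2 fold change of 0.52 ± 0.20 (unadjusted p = 0.0263). Pola1, the catalytic subunit of polymerase alpha, had 35.8, 51.7 and 20.8 CPM in ASO1 tumors and 15.9, 23.3, 26.9 and 22.8 CPM in ASO2 tumors, against 20.3, 25.9 and 16.04 CPM in scASO tumors. Of these, 4 of the 7 ASO tumors overlapped or fell below scASO, and the log2 fold change was 0.46 ± 0.28 (0.28 with ASO1 tumor 2 left out, 0.30 with scASO tumor 3 left out). The replicative polymerases themselves had small estimates (median 0.08, range 0.07 to 0.37 over 5 subunits). Pold1, the catalytic subunit of polymerase delta, had 23.7, 39.5 and 29.3 CPM in ASO1 tumors and 29.2, 38.4, 29.5 and 34.7 CPM in ASO2 tumors, against 31.2, 28.3 and 32.5 CPM in scASO tumors. Both directions were present among the ASO tumors, and the log2 fold change was 0.07 ± 0.17 (-0.045 without ASO1 tumor 2, and up to 0.15 without ASO1 tumor 1). Pole, that of polymerase epsilon, had 23.2, 31.3 and 16.9 CPM in ASO1 tumors and 11.1, 23.996, 15.8 and 13.96 CPM in ASO2 tumors, against 15.1, 16.6 and 14.2 CPM in scASO tumors. ASO2 tumors 1 and 4 were below every scASO tumor, and the log2 fold change was 0.37 ± 0.26 (0.25 without ASO1 tumor 2 and also without ASO2 tumor 2).

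Okazaki fragment joining had no common direction. Lig1, the replicative ligase, had 58.5, 81.3 and 45.9 CPM in ASO1 tumors and 47.6, 74.5, 52.7 and 62.7 CPM in ASO2 tumors, against 52.1, 56.3 and 51.96 CPM in scASO tumors. The groups overlapped, with a log2 fold change of 0.19 ± 0.19 (0.066 without ASO1 tumor 2). Fen1, the flap nuclease, had 2.52, 1.53 and 0.667 CPM in ASO1 tumors and 0.289, 1.43, 0.735 and 0.937 CPM in ASO2 tumors, against 1.95, 1.28 and 0.619 CPM in scASO tumors. Its log2 fold change of -0.16 ± 0.55 was the one member estimate below 0, and lay between -0.48 and 0.28 with 1 tumor left out. In the annotation 84.2% of the exon bases of Fen1 are shared with other genes, the antisense gene Gm10143 being the largest partner, so its count may be incomplete. Among the 3 subunits of replication protein A, Rpa2 had 38.4, 43.7 and 25.5 CPM in ASO1 tumors and 30.2, 37.2, 28.5 and 48.4 CPM in ASO2 tumors, against 23.6, 24.5 and 26.4 CPM in scASO tumors. In all, 6 of the 7 ASO tumors were above every scASO tumor, and the log2 fold change was 0.55 ± 0.21 (unadjusted p = 0.0229), the smallest of the 43. Rpa3 had 14.4, 15.3 and 13.8 CPM in ASO1 tumors and 24.4, 14.2, 13.4 and 21.9 CPM in ASO2 tumors, against 13.02, 12.9 and 12.6 CPM in scASO tumors. The groups did not overlap, and the log2 fold change was 0.36 ± 0.22.

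The enzymes of nucleotide supply had a median of 0.54. Rrm2 (GRCm38 chr12:24708241-24714146), the S phase subunit of ribonucleotide reductase, had 43.4, 70.2 and 42.1 CPM in ASO1 tumors and 49.4, 59.5, 48.9 and 173 CPM in ASO2 tumors, against 38.8, 31.5 and 48.3 CPM in scASO tumors. ASO2 tumor 4 stood far above the other 9, and the log2 fold change was 0.74 ± 0.40 (0.41 without ASO2 tumor 4). Tyms, thymidylate synthase, had 44.97, 57.3 and 37.9 CPM in ASO1 tumors and 24.7, 33.9, 38.1 and 49.3 CPM in ASO2 tumors, against 28.4, 28.1 and 29.5 CPM in scASO tumors. All ASO tumors but ASO2 tumor 1 exceeded the scASO range, and the log2 fold change was 0.54 ± 0.20 (unadjusted p = 0.0232, adjusted p = 0.827 in edgeR's quasi-likelihood test).

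**Figure D2:**
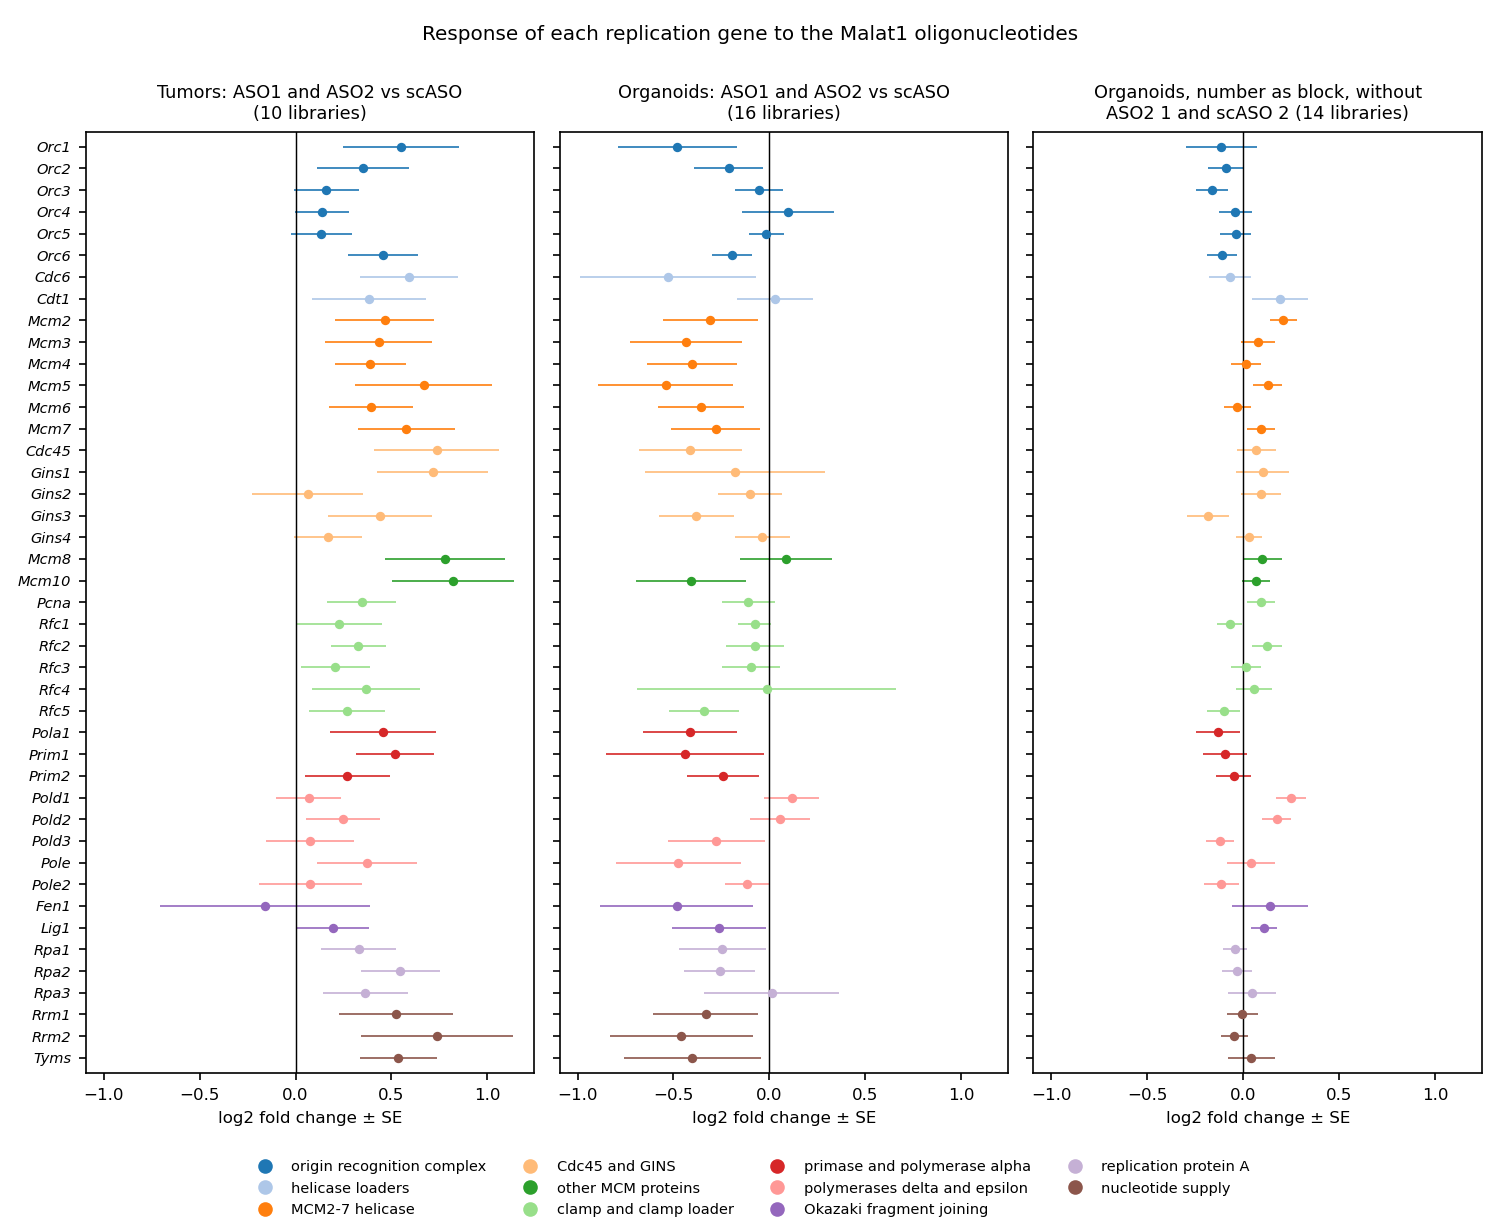
Log2 fold change of each of the 43 replication genes for both ASOs over scASO, colored by role, in tumors (left), in all organoids (middle) and in organoids with the replicate number as a block and without the 2 libraries that went against their labels (right). Bars are ± 1 standard error of the fit. In tumors 42 of 43 estimates are above 0, in organoids 6 of 43 with all libraries and 23 of 43 in the other fit.

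Other genes of the cell cycle leaned the same way in these tumors. Of 43 further replication genes 40 had estimates above 0 (median 0.45, 8 at an unadjusted p under 0.05, 0 called), with the smallest p for Cdc7, the kinase that starts the loaded helicase (log2 fold change 0.80 ± 0.25). Of 30 regulators of the G1 to S transition 23 were above 0 (median 0.25, 4 higher and 1 lower at an unadjusted p under 0.05, 0 called). All 20 mitotic genes were above 0 (median 0.72, 11 at an unadjusted p under 0.05, 0 called), Ndc80, a kinetochore protein, with 0.95 ± 0.30. The mean log2 CPM of the mitotic genes was 5.60, 6.42 and 5.17 in ASO1 tumors and 4.65, 5.69, 5.19 and 5.62 in ASO2 tumors, against 4.98, 4.61 and 5.04 in scASO tumors. ASO1 tumor 2 was again the highest.

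Markers of other cell types moved with some of the same tumors. All 10 adipocyte markers had estimates above 0 in ASO over scASO tumors (median 3.38, 9 at an unadjusted p under 0.05), and their mean log2 CPM was -1.34, -0.84 and 0.62 in ASO1 tumors and 5.69, 0.24, 4.47 and 3.84 in ASO2 tumors, against -0.94, -0.52 and -1.26 in scASO tumors. Their summed CPM was 14.9 to 41.1 in ASO1 and 31.8 to 1303 in ASO2 tumors, against 21.6 to 23.1 in scASO tumors, where Plin1 was at 0 in each. Skeletal muscle markers were above 0 for 10 of 10 (median 1.44), with a mean log2 CPM of 7.61 in ASO2 tumor 1 and 2.72 in ASO2 tumor 4, against at most 1.80 in the other tumors. Endothelial markers were above 0 for 8 of 10, with 9 of 10 in ASO1 over scASO (median 0.71, 3 at an unadjusted p under 0.05, 0 called) and 3 of 10 in ASO2 over scASO (median -0.18). Their mean log2 CPM was 3.14 to 3.97 in ASO1 and 1.95 to 3.13 in ASO2 tumors, against 2.73 to 2.93 in scASO tumors, so that all ASO1 tumors lay above the scASO tumors. Fibroblast markers were above 0 for 10 of 10 (median 0.55), macrophage for 7 of 10, lymphocyte for 5 of 7 tested and epithelial for 2 of 10 (median -0.21). ASO1 tumor 2, with the highest mean of the replication genes, had an adipocyte mean of -0.84, and ASO2 tumor 1, with the lowest, had 5.69. Other tumors did not follow this order. ASO2 tumor 4, with the next highest mean of the replication genes at 5.05, had 3.84, and the scASO tumors, at 4.52 to 4.56, had -1.26 to -0.52. The part of cell mixture in the estimates was not tested. In bulk tissue fewer cells of a type and less RNA per cell cannot be told apart.

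In organoids most of the set had lower estimates under the ASOs, and again no gene passed the test. With all libraries 6 of 43 estimates were above 0 for both ASOs over scASO (median -0.26, range -0.54 to 0.12), while 52.2% of 17126 genes were above 0 with a median of 0.01. By edgeR's quasi-likelihood test 0 members and 0% of genes were called, and no member had an unadjusted p under 0.05 (1.06% of genes), or 2, both lower, by DESeq2 (1.54% of genes). ASO1 alone gave 7 above 0 (median -0.16, 52.4% of genes) and ASO2 alone 5 (median -0.36, 51.5% of genes), with 0 members and 0% of genes called in each. Both ASOs over Mock gave 4 above 0 (median -0.09, 46.4% of genes) and scASO over Mock 31 above 0 (median 0.14, 48.1% of genes), with 0 members and 0% of genes called in each and 2.73% of genes at an unadjusted p under 0.05 for the ASOs over Mock. With the replicate number as a block and all libraries, 5 estimates were above 0 for both ASOs over scASO (median -0.29), and no member was called for both ASOs over Mock, against 4.31% of genes, or for scASO over Mock, against 0.747%. Single libraries moved these counts: both ASOs over scASO gave 3 above 0 without scASO 1 or without the library labelled scASO replicate 2, and ASO2 over scASO 8 without the library labelled ASO2 replicate 1. ASO1 over scASO gave 12 without ASO1 2, 4 without ASO1 3 or without scASO 1, and 3 without ASO1 4. Both ASOs over Mock gave 24 without Mock 1, 16 without Mock 3, 12 without ASO1 2, 11 without the library labelled ASO2 replicate 1, 8 without ASO1 4, and 7 without ASO2 2 or without Mock 4. Limma voom with quality weights called 15 members lower for both ASOs over scASO (6.01% of genes) and 28 for ASO2 over scASO (23.2% of genes), of which 27 were lower, and 0 in either without the 2 libraries that went against their labels. With those 2 left out, edgeR gave 6 above 0 and a median of -0.19, and with the replicate number as a block as well, 23 above 0 and a median of 0.02 (range -0.18 to 0.25), beside 50.4% of all genes. That fit called 0 members for both ASOs over scASO (0.0231% of genes), 0 for both ASOs over Mock (9.86% of genes) and 0 for scASO over Mock (1.78% of genes).

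The same genes are given by library. Orc6 had 24.9, 19.1, 21.6 and 23.4 CPM in ASO1 organoids and 19.9, 19.1, 22.1 and 18.5 CPM in ASO2 organoids. It had 25.5, 24.9, 23.97 and 21.7 CPM in scASO organoids and 23.8, 18.9, 22.6 and 20.7 CPM in Mock organoids. The log2 fold change over scASO was -0.20 ± 0.10, and -0.11 ± 0.08 with the block and without the 2 libraries. Cdc6 had 13.8, 3.61, 16.8 and 9.04 CPM in ASO1 organoids and 4.21, 4.05, 15.5 and 8.10 CPM in ASO2 organoids. It had 14.003, 13.99, 16.5 and 9.16 CPM in scASO organoids and 16.02, 4.23, 16.8 and 6.86 CPM in Mock organoids. The 4 low libraries, ASO1 2, ASO2 2, Mock 2 and the library labelled ASO2 replicate 1, lay between 3.61 and 4.23 CPM and the other 12 between 6.86 and 16.8 CPM, and its estimate was -0.53 ± 0.46 with all libraries and -0.07 ± 0.11 in the other fit. Cdt1 had 22.7, 29.5, 17.1 and 25.9 CPM in ASO1 organoids and 20.2, 23.996, 21.2 and 30.97 CPM in ASO2 organoids. It had 24.9, 29.01, 18.1 and 21.7 CPM in scASO organoids and 25.1, 16.9, 16.2 and 28.4 CPM in Mock organoids. No such split was present for Cdt1, and its log2 fold change was 0.03 ± 0.20 or 0.19 ± 0.15.

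In the MCM2-7 helicase, 0 of 6 estimates were above 0 with all libraries (median -0.38) and 5 of 6 with the block and without the 2 libraries (median 0.08). Mcm2 had 86.6, 47.9, 59.3 and 51.6 CPM in ASO1 organoids and 40.5, 52.01, 62.8 and 53.7 CPM in ASO2 organoids. It had 83.8, 101, 54.8 and 41.6 CPM in scASO organoids and 86.7, 40.6, 58.99 and 42.4 CPM in Mock organoids. The library labelled ASO2 replicate 1 was the lowest and that labelled scASO replicate 2 the highest of the 16, and the log2 fold change was -0.31 ± 0.25 with them and 0.21 ± 0.07 (unadjusted p = 0.0103, adjusted p = 0.461 in edgeR's quasi-likelihood test) in the other fit. Mcm4 had 84.7, 41.7, 59.5 and 58.5 CPM in ASO1 organoids and 43.5, 41.6, 63.5 and 56.5 CPM in ASO2 organoids. It had 91.2, 92.2, 63.9 and 49.4 CPM in scASO organoids and 89.1, 41.8, 59.6 and 44.3 CPM in Mock organoids. The low libraries were the same 4 as for Cdc6, and the log2 fold change was -0.40 ± 0.23 or 0.01 ± 0.08. Mcm7 had 80.7, 45.4, 74.2 and 79.3 CPM in ASO1 organoids and 40.9, 46.2, 77.1 and 76.9 CPM in ASO2 organoids. It had 80.6, 92.3, 70.9 and 71.8 CPM in scASO organoids and 91.6, 40.5, 73.6 and 63.1 CPM in Mock organoids. These 4 were low here too, and the log2 fold change was -0.28 ± 0.23 or 0.09 ± 0.08.

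Mcm10, Gins1 and Gins3 were lowest in the same 4 libraries, while Gins4, in ASO1 and Mock organoids, was lowest in number 4 (mean log2 CPM 4.76, against 4.90 in number 2). Mcm10 had 23.6, 9.07, 18.7 and 16.99 CPM in ASO1 organoids and 9.51, 9.18, 18.2 and 16.3 CPM in ASO2 organoids. It had 22.6, 24.8, 17.9 and 15.1 CPM in scASO organoids and 25.5, 9.65, 17.7 and 15.9 CPM in Mock organoids. Its log2 fold change was -0.41 ± 0.29 with all libraries and 0.07 ± 0.07 in the fit with the block. Mcm8 had 7.99, 7.91, 11.8 and 12.4 CPM in ASO1 organoids and 7.73, 8.61, 10.6 and 11.6 CPM in ASO2 organoids. It had 6.68, 7.52, 11.1 and 11.5 CPM in scASO organoids and 8.55, 7.52, 11.3 and 14.02 CPM in Mock organoids. Numbers 3 and 4 were above numbers 1 and 2 in every group for Mcm8, and the log2 fold change was 0.09 ± 0.24 with all libraries and 0.10 ± 0.10 with the block and without the 2 libraries. Gins1 had 3.86, 1.68, 5.29 and 9.09 CPM in ASO1 organoids and 1.83, 2.22, 6.42 and 7.33 CPM in ASO2 organoids. It had 4.28, 4.89, 5.39 and 6.84 CPM in scASO organoids and 5.07, 2.22, 6.49 and 7.32 CPM in Mock organoids. It ran from 1.68 to 9.09 CPM, and the log2 fold change was -0.18 ± 0.47 or 0.10 ± 0.14. Gins3 had 5.36, 3.67, 5.24 and 5.34 CPM in ASO1 organoids and 4.12, 3.01, 5.44 and 4.50 CPM in ASO2 organoids. It had 6.10, 6.41, 6.22 and 5.05 CPM in scASO organoids and 6.38, 3.99, 6.06 and 5.31 CPM in Mock organoids. Its unadjusted p of 0.0702 was the smallest of the 43 (log2 fold change -0.38 ± 0.19, and -0.18 ± 0.11 in the fit with the block).

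Clamp and polymerase genes showed the split to differing degrees. Pcna had 109, 76.7, 105 and 105 CPM in ASO1 organoids and 72.5, 89.1, 108 and 94.2 CPM in ASO2 organoids. It had 104, 114, 101 and 89.4 CPM in scASO organoids and 94.9, 69.9, 104 and 86.6 CPM in Mock organoids. The log2 fold change was -0.11 ± 0.14, and 0.09 ± 0.07 with the block and without the 2 libraries, its range over the organoids being narrower than that of Cdc6. Rfc2 had 41.1, 32.8, 44.3 and 37.2 CPM in ASO1 organoids and 32.3, 32.2, 47.3 and 33.1 CPM in ASO2 organoids. It had 39.97, 45.5, 39.5 and 32.8 CPM in scASO organoids and 47.8, 31.5, 43.5 and 31.5 CPM in Mock organoids. Numbers 2 and 4 were the low ones for Rfc2 in ASO1 and Mock organoids, and the log2 fold change was -0.07 ± 0.15, or 0.013 without the 2 libraries and 0.12 ± 0.08 with the block as well. Rfc5 had 31.2, 18.4, 28.7 and 24.05 CPM in ASO1 organoids and 21.5, 19.8, 29.5 and 20.3 CPM in ASO2 organoids. It had 33.5, 35.4, 31.5 and 21.8 CPM in scASO organoids and 34.3, 23.7, 32.1 and 20.5 CPM in Mock organoids. The log2 fold change was -0.34 ± 0.18, and -0.10 ± 0.09 in the fit with the block. Prim1 had 18.1, 5.72, 21.7 and 18.8 CPM in ASO1 organoids and 7.25, 5.19, 21.8 and 17.7 CPM in ASO2 organoids. It had 19.7, 18.2, 23.4 and 17.4 CPM in scASO organoids and 23.1, 8.10, 25.3 and 15.3 CPM in Mock organoids. The same 4 libraries as for Cdc6 lay between 5.19 and 8.10 CPM and the other 12 at or above 15.3 CPM, and the log2 fold change was -0.44 ± 0.41 or -0.09 ± 0.11. Pola1 had 42.7, 16.5, 35.9 and 27.2 CPM in ASO1 organoids and 23.6, 19.4, 31.5 and 25.2 CPM in ASO2 organoids. It had 40.9, 39.5, 40.6 and 25.9 CPM in scASO organoids and 43.8, 22.4, 29.7 and 20.9 CPM in Mock organoids. Its log2 fold change was -0.41 ± 0.24 or -0.13 ± 0.12.

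Pold1 had 49.2, 54.1, 37.2 and 41.7 CPM in ASO1 organoids and 45.9, 51.9, 42.1 and 50.9 CPM in ASO2 organoids. It had 46.6, 56.1, 32.02 and 36.9 CPM in scASO organoids and 45.6, 46.01, 34.8 and 45.4 CPM in Mock organoids. Its number 2 organoids were not low, and the log2 fold change was 0.12 ± 0.14, or 0.25 ± 0.08 (unadjusted p = 0.00707, adjusted p = 0.449 in edgeR's quasi-likelihood test) with the block and without the 2 libraries. Pole had 40.4, 12.3, 27.7 and 21.98 CPM in ASO1 organoids and 11.8, 13.5, 26.8 and 24.5 CPM in ASO2 organoids. It had 32.3, 39.5, 29.8 and 21.8 CPM in scASO organoids and 37.95, 14.3, 21.8 and 15.6 CPM in Mock organoids. Here the low libraries were those of Cdc6, and the log2 fold change was -0.47 ± 0.33 or 0.04 ± 0.12. Lig1 had 78.5, 39.04, 69.3 and 59.3 CPM in ASO1 organoids and 35.9, 41.7, 73.5 and 62.8 CPM in ASO2 organoids. It had 73.6, 78.6, 68.8 and 54.3 CPM in scASO organoids and 78.1, 37.1, 74.97 and 50.3 CPM in Mock organoids. It split in the same way, with a log2 fold change of -0.26 ± 0.24 or 0.11 ± 0.07. Fen1 had 4.08, 1.45, 1.94 and 1.27 CPM in ASO1 organoids and 1.75, 1.80, 2.17 and 1.72 CPM in ASO2 organoids. It had 4.75, 3.94, 1.44 and 1.16 CPM in scASO organoids and 3.10, 1.89, 1.27 and 1.34 CPM in Mock organoids. Its values were highest in number 1 of ASO1, scASO and Mock and in the library labelled scASO replicate 2, and the log2 fold change was -0.48 ± 0.40 or 0.14 ± 0.20.

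Rpa2 had 29.9, 20.1, 32.1 and 28.5 CPM in ASO1 organoids and 19.1, 18.7, 32.8 and 25.8 CPM in ASO2 organoids. It had 33.9, 32.8, 31.5 and 25.4 CPM in scASO organoids and 34.3, 22.7, 35.7 and 25.5 CPM in Mock organoids. The log2 fold change was -0.26 ± 0.19 or -0.03 ± 0.08, with the low libraries those of Cdc6. Rpa3 had 7.03, 4.66, 12.1 and 13.6 CPM in ASO1 organoids and 6.58, 6.01, 10.1 and 10.9 CPM in ASO2 organoids. It had 6.79, 5.86, 11.05 and 11.4 CPM in scASO organoids and 7.75, 5.18, 14.7 and 12.5 CPM in Mock organoids. Numbers 3 and 4 were above numbers 1 and 2 in every group, and the log2 fold change was 0.01 ± 0.35 or 0.05 ± 0.13, and -0.10 with the 2 libraries left out and no block. Rrm2 had 74.3, 27.8, 77.1 and 77.1 CPM in ASO1 organoids and 26.1, 25.9, 83.7 and 78.3 CPM in ASO2 organoids. It had 79.7, 87.6, 83.1 and 72.6 CPM in scASO organoids and 75.3, 31.5, 86.5 and 85.3 CPM in Mock organoids. The 4 low libraries lay between 25.9 and 31.5 CPM and the other 12 at or above 72.6 CPM, with a log2 fold change of -0.46 ± 0.37 or -0.05 ± 0.07. Tyms had 29.2, 11.2, 30.8 and 20.5 CPM in ASO1 organoids and 12.2, 12.5, 31.1 and 19.2 CPM in ASO2 organoids. It had 28.1, 31.4, 32.2 and 17.98 CPM in scASO organoids and 33.3, 12.1, 34.1 and 12.8 CPM in Mock organoids. The log2 fold change was -0.40 ± 0.36 or 0.04 ± 0.12, and Mock 4 was low beside the same 4 libraries.

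Organoid levels of these genes differed by replicate number, with a smaller median share of the variance than over all genes. Over the 43 genes a median of 45.9% of the variance in log2 CPM lay between replicate numbers (range 18.5 to 97.5%) and 13.4% between treatments, beside 70.9% and 8.30% over all genes tested. All organoid libraries entered under their labels, also the 2 whose Malat1 went against the label, and shares without those 2 are not given. A share above 0 arises between groups without any effect of treatment or of number, so 13.4% is not read as a response and part of the 45.9% arises in the same way. In ASO1 and Mock organoids, whose libraries did not go against their labels, number 2 was below the mean of numbers 1 and 3 for 39 of 43 genes, with a median log2 difference of -0.61. For 34 genes both number 2 libraries were below all 4 of numbers 1 and 3, a placement found for 17.7% of all genes, and for 1, Pold2, above (17.8% of all genes). This comparison was chosen after the values were seen. The log2 difference was largest for Cdc6 (-1.999), Prim1 (-1.68), Tyms (-1.44), Rrm2 (-1.40) and Gins1 (-1.37), and was above 0 for Pold1 (0.27), Cdt1 (0.17), Pold2 (0.10) and Orc3 (0.06). A second pattern set numbers 3 and 4 above numbers 1 and 2, by 2.09 for Rfc4, 1.22 for Gins1 and 1.12 for Rpa3. Members with an E2F match, here including TTTCCCGC and TTTGCCGC, had a median number 2 difference of -0.58 (n = 15), and members without one -0.62 (n = 21). Their median tumor log2 fold change was 0.43 with a match and 0.36 without.

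The 2 libraries that went against their Malat1 labels also differed from their own number across the replication genes. The root mean square log2 difference from the mean of the ASO1 and Mock libraries over the 43 genes was 0.14 from number 2 and 0.91 from number 1 for the library labelled ASO2 replicate 1. It was 0.16 from number 1 and 0.96 from number 2 for the library labelled scASO replicate 2. Each of the other 6 ASO2 and scASO libraries was nearest its own number, at 0.14 to 0.18. Within number 3, the mean log2 difference over the 43 genes was -0.02 for ASO1 minus scASO and 0.0049 for ASO2 minus scASO. Within number 4 it was 0.12 for ASO1 minus scASO, with 36 genes higher, and 0.07 for ASO2 minus scASO, with 29 higher. Within number 1, ASO1 minus scASO was -0.0037 with 22 genes higher, and ASO2 minus scASO, which rests on the library labelled ASO2 replicate 1, was -0.66 with 5 higher. Within number 2, both differences rest on the library labelled scASO replicate 2 and were -0.81 with 3 higher for ASO1 and -0.76 with 4 higher for ASO2, while ASO1 minus Mock was -0.08 with 15 higher. The within-number pairs free of the 2 libraries held between 16 and 36 of 43 genes higher for an ASO over scASO.

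**Figure D3:**
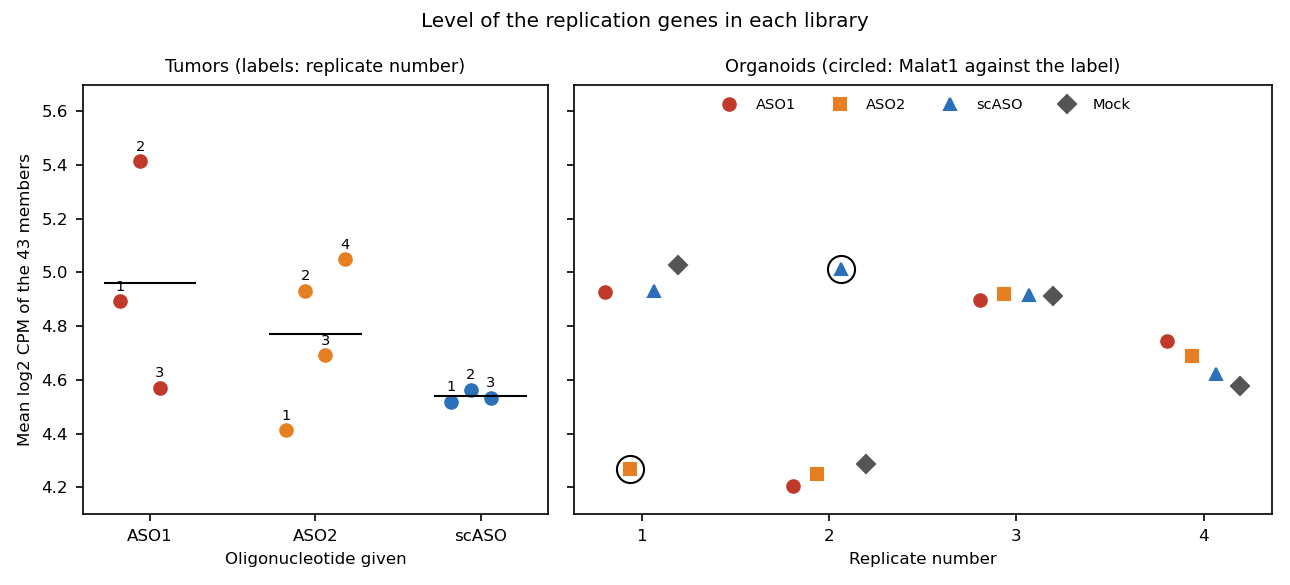
Mean log2 CPM over the 43 replication genes in each tumor by group (left, lines at group means) and in each organoid library by replicate number (right, symbols by group, circles around the 2 libraries whose Malat1 went against the label). The number 2 organoids of ASO1, ASO2 and Mock lie between 4.20 and 4.29, where the library labelled ASO2 replicate 1 also lies at 4.27, while the library labelled scASO replicate 2 is the highest scASO organoid at 5.01.

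Across the groups the mean log2 CPM over the 43 genes was 4.69 ± 0.34 in ASO1, 4.53 ± 0.33 in ASO2, 4.87 ± 0.17 in scASO and 4.70 ± 0.34 in Mock organoids (SD, n = 4 each), and without the 2 libraries 4.62 ± 0.34 in ASO2 and 4.82 ± 0.17 in scASO organoids (SD, n = 3 each). Without them ASO2 holds numbers 2, 3 and 4 and scASO numbers 1, 3 and 4, so the low number 2 enters ASO2 only. Treatment and number cannot be told apart in that gap. Within numbers 3 and 4 the mean ASO2 minus scASO difference was 0.0049 and 0.07. In tumors the mean was 4.96 ± 0.43 in ASO1 (n = 3), 4.77 ± 0.28 in ASO2 (n = 4) and 4.54 ± 0.02 in scASO (n = 3, SD). Further replication genes followed the members in organoids, with 5 of 43 above 0 for both ASOs over scASO (median -0.24), as did mitotic genes with 0 of 20 (median -0.40), and with the block and without the 2 libraries these became 16 of 43 (median -0.04) and 8 of 20 (median -0.04). None of either list was called in either fit.

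**Figure D4:**
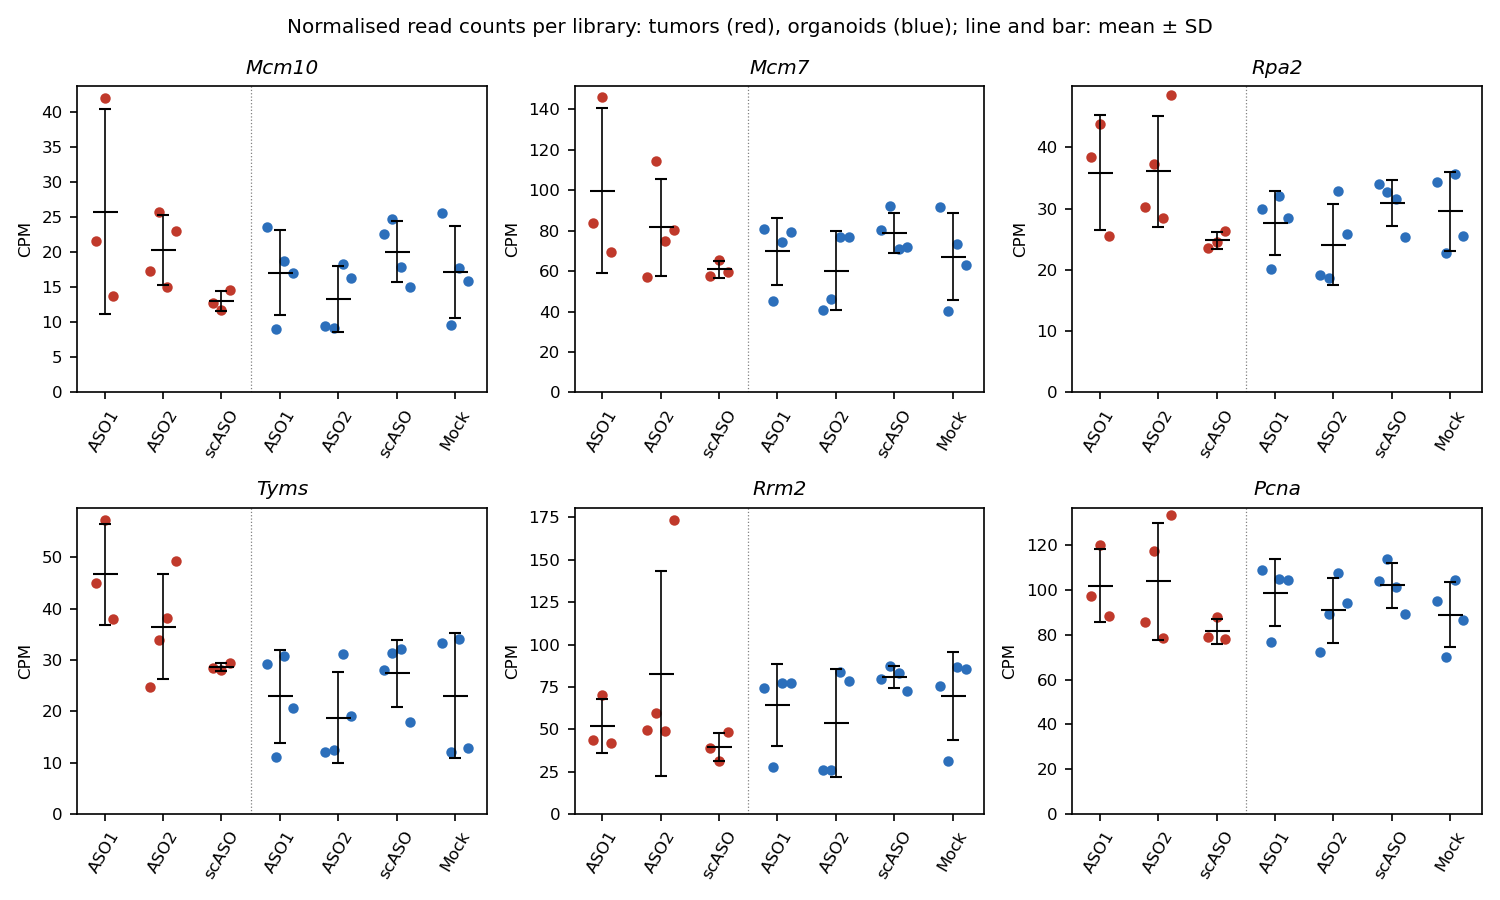
CPM of 6 replication genes in every library by group, tumors in red and organoids in blue, with points in the order of replicate number and lines and bars for the group mean ± SD. ASO2 tumor 4 is the highest for Rrm2 at 173 CPM, and the lowest organoids for Rrm2 and Tyms are those of number 2 in ASO1, ASO2 and Mock with the library labelled ASO2 replicate 1.

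The tumor response was set against the organoid response in 1 fit of both systems. The tumor log2 fold change was above the organoid one for 42 of 43 genes, with a median difference of 0.60 and a range of -0.06 (Pold1) to 1.22 (Mcm10), against 51% of 18695 genes. By edgeR's quasi-likelihood test 0 members and 0% of genes were called. Unadjusted p was under 0.05 for 11 members, all with a larger tumor value, against 4.45% of genes, and the smallest belonged to Orc6 (0.63 ± 0.20, unadjusted p = 0.00394, adjusted p = 1.00). DESeq2 called 0 members and limma voom with quality weights 12 (1.5% of genes). With the replicate number as a block and all libraries, 41 genes were above 0 and 25 had an unadjusted p under 0.05, against 11.4% of genes. With the block and without the 2 libraries the median difference was 0.33, 40 genes were above 0 and 6 had an unadjusted p under 0.05, against 7.47% of genes. Without ASO1 tumor 2 the median was 0.45 with 5 at an unadjusted p under 0.05, against 3.99% of genes.

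The level of the machinery was also compared between the systems, as the mean of ASO1, ASO2 and scASO organoids over the mean of the same tumor groups. The system and all that differs with it, such as culture medium and cell mixture, cannot be told apart. Of the 43 genes 17 differed by edgeR's quasi-likelihood test, 6 higher in organoids and 11 lower, against 28.5% and 29.8% of 18695 genes (58.3% in either direction). Without the 2 libraries that went against their labels 5 were higher and 10 lower, and with the block as well 8 and 11 (67.1% of genes called). The main fit took organoid libraries as independent, though those of the same number resembled each other. The block takes the spread between organoid numbers out of the error of this comparison. In both fits the p-values between the systems may therefore be too small and the counts of called genes too high. Estimates were above 0 for 21 members and for 48.6% of genes. Pold1 was higher by 0.53 ± 0.11 (adjusted p = 0.000305) and Pold2 by 0.55 ± 0.12 (adjusted p = 0.000701), and the other 3 subunits of polymerases delta and epsilon had estimates above 0 that did not pass (median 0.45 over the 5). Fen1 was higher by 0.92 ± 0.33 (adjusted p = 0.0222), Mcm4 by 0.51 ± 0.16 (adjusted p = 0.00873), Mcm8 by 0.46 ± 0.17 (adjusted p = 0.0264) and Rfc1, the large loader subunit, by 0.27 ± 0.11 (adjusted p = 0.0346). The Fen1 value rests on 9 to 172 reads a library, a count that may be incomplete because of its shared exon bases. Pold1 lay between 32.0 and 56.1 CPM in organoids and between 23.7 and 39.5 CPM in tumors, so that the systems overlapped.

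Of the 11 lower genes, Prim1 fell by 0.91 ± 0.25 on the log2 scale (adjusted p = 0.00313 in edgeR's quasi-likelihood test), with 5.19 to 25.3 CPM in organoids and 23.2 to 49.1 CPM in tumors. Gins1 had a log2 fold change of -0.99 ± 0.28 and Rpa3 of -0.77 ± 0.21, and Tyms of -0.68 ± 0.22. Rfc4 had the largest (-1.03 ± 0.39, adjusted p = 0.0281), but its organoids of numbers 1 and 2 lay between 2.82 and 4.75 CPM and those of numbers 3 and 4 between 14.3 and 18.7 CPM, the second range lying inside that of the tumors, 12.6 to 30.4 CPM. Gins1 and Rpa3 also differed by number: in ASO1 and Mock organoids numbers 3 and 4 were above numbers 1 and 2 by 1.22 and 1.12 on the log2 scale. The loader subunits Rfc2 (-0.40 ± 0.10), Rfc3 (-0.41 ± 0.11) and Rfc5 (-0.37 ± 0.13) were lower with narrower spreads, as were Orc6 (-0.37 ± 0.09), Orc5 (-0.20 ± 0.08) and Gins3 (-0.39 ± 0.14). Mcm2 (0.32 ± 0.18), Mcm7 (-0.19 ± 0.17), Mcm10 (-0.19 ± 0.21), Cdc6 (-0.09 ± 0.28), Cdt1 (0.39 ± 0.17), Pola1 (0.25 ± 0.18), Pole (0.45 ± 0.22), Rpa2 (-0.21 ± 0.13), Rrm2 (0.24 ± 0.27), Lig1 (0.07 ± 0.16) and Pcna (0.03 ± 0.10) did not pass. Lig1 and Pcna change sign under upper-quartile scaling. Markers, in lists of 10 genes each, differed widely between the same groups: 7 of 10 epithelial markers were called higher in organoids, and 7 adipocyte, 7 muscle, 10 endothelial, 8 macrophage and 7 lymphocyte markers lower. Fibroblast markers had a mean log2 CPM of 3.84 over all organoids, Mock included, and 5.27 over all tumors. The part of cell mixture in the members' values was not tested. Among the G1 to S regulators Ccnd1 (2.198 ± 0.22), Ccnd2 (3.12 ± 0.35) and Cdkn1a (2.51 ± 0.28) were higher in organoids, 11 of 30 being called higher and 4 lower, and of the further replication genes 12 of 43 were called higher and 9 lower.

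**Figure D5:**
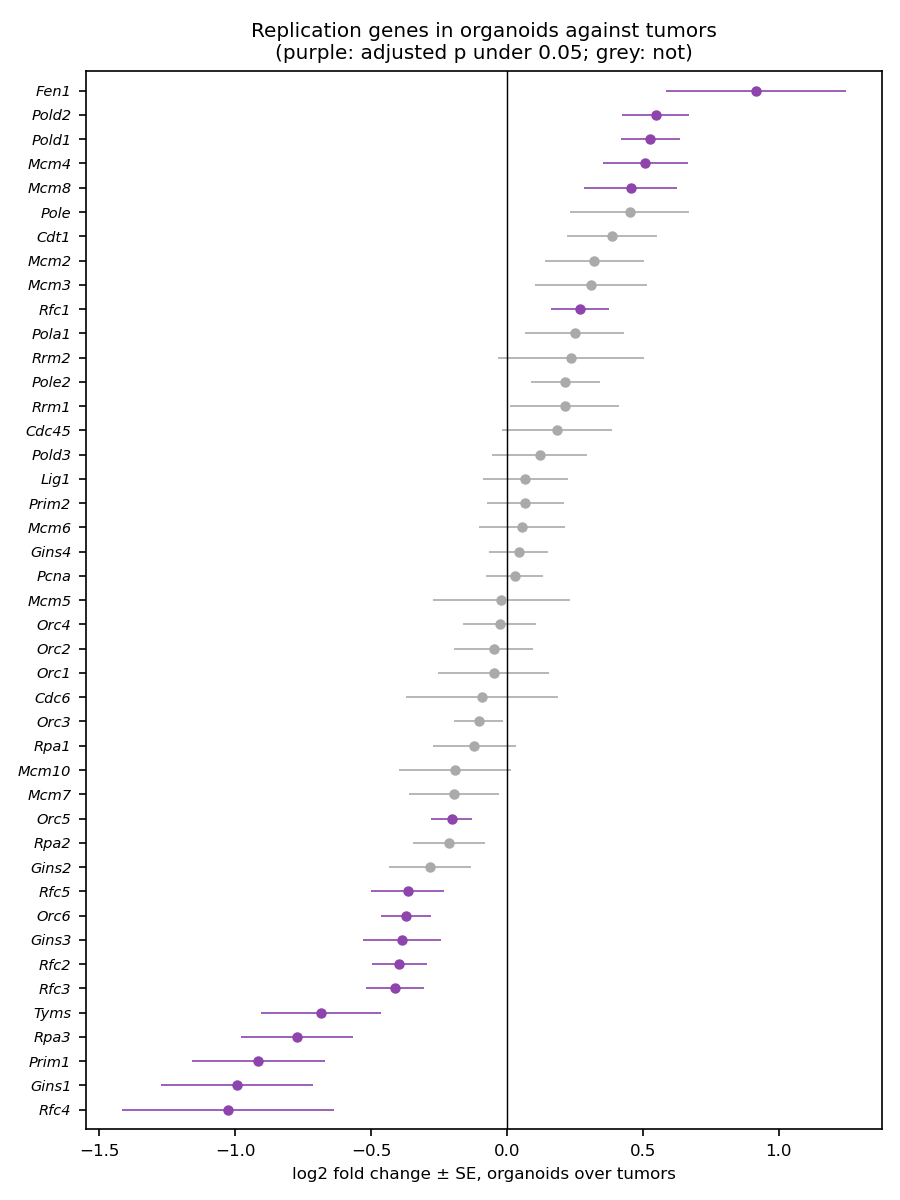
Log2 fold change of organoids over tumors for each of the 43 replication genes, in order of the estimate, with bars of ± 1 standard error of the fit. Purple points mark the 17 genes with an adjusted p under 0.05, 6 of them higher and 11 lower in organoids, with Fen1 highest at 0.92 and Rfc4 lowest at -1.03.

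As the CPM divided by the length of all annotated exons of the gene in kilobases (RPKM), Pcna was highest in organoids at 39.7 RPKM and in tumors at 40.2 RPKM. That length can exceed any single transcript, so the order depends on the annotation. Rrm1, with 11012 exon bases against 2400 for Pcna, ranked 14 in organoids. In ASO1 and Mock organoids its mean log2 CPM was above that of Pcna in every number (6.28 to 7.43, against 6.20 to 6.71). Pold2 (26.7), Gins4 (24.2), Rrm2 (24.2), Mcm6 (21.1) and Pold3 (20.6 RPKM) followed in organoids. In tumors Gins4 (23.4), Rrm2 (21.9), Mcm6 (20.2), Pold3 (19.2) and Pold2 (18.3 RPKM) followed. The place of Rrm2 in tumors rests in part on ASO2 tumor 4, at 173 CPM, with the other ASO2 tumors between 48.9 and 59.5 CPM. Fen1 and Orc1 were the lowest in both, at 0.905 and 0.838 RPKM in organoids and 0.493 and 0.877 RPKM in tumors. Because Fen1 shares 84.2% of its exon bases with other genes, its count may be incomplete and its RPKM too low.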

How the data were processed

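Polyadenylated RNA was sequenced in 10 tumor libraries and 16 organoid libraries, per the labels' protocols, after TRIzol extraction and TruSeq library preparation from 1 µg of RNA. The authors deposited raw read counts per gene for each library. The submitters' processing notes name build mm9 and the tools STAR, HTSeq, CASAVA, FastQC and DESeq2. Their versions and roles, the annotation and the use of strand were not given in the sources used here. Every table held 37310 genes and 5 lines that name no gene, which entered neither library sizes nor tests. Relative to reads in genes those lines held 8.34 to 24.5% (no feature), 3.90 to 8.70% (ambiguous) and 21.2 to 44.0% (several alignments). Because reads with several alignments belong to no gene, genes with near-identical copies may be undercounted. Of the gene IDs 32620 matched a symbol in GENCODE M21 (GRCm38) and 4690 did not, and coordinates are those of GRCm38, not of the authors' build.

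Counts were fitted with edgeR 4.0.16 in R 4.3.3 (quasi-likelihood F-test, TMM, filterByExpr at a count of 10 and a total of 15), tumors and organoids separately and both systems together for comparisons between them. The Benjamini-Hochberg adjustment ran over all genes tested, with a threshold of 0.05. Each standard error was taken as the size of the log2 fold change over the square root of its F. CPM used TMM over all 26 libraries and log2 CPM a prior count of 2. RPKM used the union of annotated exons. Alternatives were DESeq2 1.42.0, limma 3.58.1 voom with quality weights, other scalings, no filter, a replicate block, and leaving out libraries. The code was tested on simulated counts.

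The genes, their roles and the other lists were chosen with earlier results of these data known. Values in every library are given, per role, for the members with the smallest p in tumors, in organoids and between the systems, and for Mcm2 and Pcna. Of other lists up to 3 genes with the smallest p are named, and beyond that rule Orc1, Pold2, the other called members and Plin1 were named after their values were seen.

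Groups and replicate numbers came from the sample titles. Deviations from group means correlated between organoids of the same number at 0.462 to 0.943 (24 of 24 pairs above 0.1), so the numbers pair the organoids, but what same-numbered organoids have in common is not stated in the labels. In tumors 3 of 9 pairs exceeded 0.1, and tumors share only a number. Counts of libraries in the same group differed by more than sampling noise (chi-square per degree of freedom 15.0 to 447). The lowest values belonged to pairs with a library that went against its label. They were 15.0 for scASO organoids 1 and 2 and 43.4 for ASO2 organoids 1 and 2.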

Additional observations from a re-analysis of the deposited data

Results flagged for a closer look

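In groups of 4 libraries, 9 of 125 sets of values held a library whose gap to its nearest neighbour, as a share of the range of the group, exceeded the critical value of Dixon's test, which chance passes in about 1 in 20 sets. In ASO1 organoid 2, Gins3 had 3.67 CPM, with the other 3 between 5.24 and 5.36, Pcna had 76.7 CPM, with the others between 105 and 109, and Rrm2 had 27.8 CPM, with the others between 74.3 and 77.1. In ASO2 organoid 3, Rfc2 had 47.3 CPM, with the others between 32.2 and 33.1, and Rfc5 had 29.5 CPM, with the others between 19.8 and 21.5, and these others include the library labelled ASO2 replicate 1. In scASO organoid 4, Pola1 had 25.9 CPM, with the others between 39.5 and 40.9, which include the library labelled scASO replicate 2. In Mock organoid 3, Pold1 had 34.8 CPM, with the others between 45.4 and 46.0. In ASO2 tumor 4, Rrm2 had 173 CPM, with the others between 48.9 and 59.5. Malat1 had 1485 CPM in the library labelled ASO2 replicate 1, with the other ASO2 organoids between 95.6 and 307.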

How the results depend on the processing

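Limits: 2 organoid libraries went against their labels, tumors numbered 3 or 4 a group, and Fen1 had as few as 9 reads in a library. With 1 library left out at a time the count of genes with an estimate above 0 was 38 to 43 for both ASOs over scASO in tumors, 37 to 43 for ASO1, 37 to 41 for ASO2 and 18 to 38 for ASO1 over ASO2. In organoids it was 3 to 8 for both ASOs over scASO, 3 to 12 for ASO1, 4 to 8 for ASO2, 3 to 24 for both ASOs over Mock and 24 to 35 for scASO over Mock. It was 40 to 43 for the tumor response minus the organoid response and 19 to 26 for organoids over tumors, where 14 to 18 genes were called. No member was called in the other comparisons with any library left out, and 0 is also the count with all libraries.

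The replicate block, together with leaving out the 2 organoid libraries that went against their labels, gave 23 genes above 0 for both ASOs over scASO, 21 for ASO1, 23 for ASO2, 18 for both ASOs over Mock and 14 for scASO over Mock. For both ASOs over Mock the block alone gave 9, leaving out the 2 libraries 10, and limma voom without them, an alternative added after the data were seen, 11. Without the organoids numbered 4, ASO1 over scASO gave 4. Limma voom with quality weights called 15 members for both ASOs over scASO, 28 for ASO2 over scASO and 12 for the response difference, and 0 without the 2 libraries. Malat1 in organoids kept 15.9% without the 2 libraries (exact permutation p = 0.00833). Those 2 were picked by their Malat1 values, so that this p is no independent test of Malat1. The replicate block alone, with all libraries, called 0 members in every comparison but organoids over tumors, where it called 18. In that comparison the block takes the spread between organoid numbers out of the error, so its count may be too high. In tumors, whose numbers pair no libraries, the block left 40 genes above 0 for both ASOs over scASO, 3 of them at an unadjusted p under 0.05 (4.82% of genes).

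Signs of single estimates turned as follows. In organoids, both ASOs over scASO, the block without the 2 libraries gave log2 values of 0.14 for Fen1, 0.10 for Gins1, 0.11 for Lig1, 0.068 for Mcm10, 0.21 for Mcm2, 0.012 for Mcm4, 0.093 for Mcm7, 0.092 for Pcna, 0.040 for Pole, 0.12 for Rfc2 and 0.043 for Tyms. Limma voom without the 2 libraries gave 0.11 for Fen1, 0.044 for Mcm2, -0.019 for Mcm8 and -0.23 for Rpa3, leaving out the 2 libraries gave 0.013 for Rfc2 and -0.10 for Rpa3, voom with all libraries -0.20 for Cdt1 and -0.062 for Pold1, leaving out number 4 -0.098 for Cdt1 and -0.028 for Rpa3, upper-quartile scaling -0.0028 and the block -0.010 for Rpa3. In tumors voom gave -0.018 for Pold1. For the response difference, voom without the 2 libraries gave -0.0088 for Cdt1 and -0.21 for Fen1, the block without them -0.36 for Fen1, and voom with all libraries 0.027 for Pold1. For organoids over tumors upper-quartile scaling, which put the median of all genes at -0.16, against -0.02 with TMM, gave -0.063 for Lig1 and -0.10 for Pcna. Leaving out 1 library at a time gave -0.48 to 0.28 for Fen1 and -0.045 to 0.15 for Pold1 in tumors, -0.074 to 0.13 for Cdt1, -0.053 to 0.23 for Mcm8 and -0.15 to 0.18 for Rpa3 in organoids, -0.041 to 0.76 for Fen1 and -0.22 to 0.054 for Pold1 in the response difference, and -0.27 to 0.016 for Cdc6 and -0.010 to 0.077 for Pcna in organoids over tumors. None of these estimates was called in the edgeR fit of all libraries. The cause of each turn was not tested. Of the other values of single genes under the alternatives, 2518 kept direction and side of the threshold, 38 passed it and 14 lost it.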
